A study of Homo sapiens with 18 samples.

Results

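The genes of the RUNX, CBFB and RUNX1T1 families were followed here, which are RUNX1, RUNX2, RUNX3, CBFB, RUNX1T1, CBFA2T2 and CBFA2T3. They were taken by gene symbol from a table of ATAC-seq read counts, and all 7 of 7 were found among the 54425 genes in the table. ATAC-seq uses a transposase that inserts into open DNA, so the reads on a gene reflect how accessible its chromatin was and are not a measure of its RNA. They also scale with the number of DNA copies of the gene, which was not measured here, so that accessibility and copy number cannot be told apart in any value below. The cells were HEK293T, a human embryonic kidney line, transfected with fusion genes of the leukemia translocation t(4;11). MLL is also known as KMT2A and AF4 as AFF1. There were 18 libraries in 6 groups of 3 replicates each.

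MLL-AF4 cells carried a doxycycline-inducible MLL-AF4 gene, and AF4-MLL cells a doxycycline-inducible AF4-MLL gene. Co-expression cells carried a constitutive MLL-AF4 gene together with an inducible AF4-MLL gene. All 3 settings received doxycycline at 1 µg/ml for 48 h and were sampled on day 3 and day 28. By the methods of the study, the constitutive line was made by selection after transposon-mediated integration and was cultivated for weeks before it received the AF4-MLL construct. The methods describe that second transfection as transient, with loss of the AF4-MLL plasmid after the induction for lack of selection. By that account, co-expression cells of day 28 had passed through AF4-MLL expression rather than kept it. Whether the plasmid was gone by day 28 was not tested here. The labels describe the cells of all settings as stable transfectants. No mock-transfected cells were among the labelled libraries, and each setting was its own cell population, so an effect of the fusion genes and a difference between the populations cannot be told apart. The methods call the replicates biological, but the labels do not say how they were separated.

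RUNX proteins are transcription factors that bind DNA through a conserved Runt domain and recruit either activators or repressors. CBFB is their shared non-DNA-binding partner, which strengthens their hold on DNA. RUNX1T1 (ETO, or MTG8), CBFA2T2 (MTGR1) and CBFA2T3 (MTG16) form the MTG family of corepressors, which bridge DNA-bound factors to NCOR complexes and histone deacetylases. In blood, RUNX1 and CBFB are needed for the formation of hematopoietic stem cells, and both are recurrently rearranged in acute leukemia. The translocation t(8;21) fuses RUNX1 to RUNX1T1, and t(16;21) fuses RUNX1 to CBFA2T3. RUNX2 is best known as the master regulator of bone formation, and RUNX3 for its roles in T cells and sensory neurons.

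RUNX2 and RUNX3 each have a distal and a proximal promoter, and the distal ones carry RUNX binding motifs themselves. The sequences are shown because they hold an element that both genes share. From RefSeq (GRCh38.p14), 7 promoter windows of 5 members were examined, each of 300 bases, from 250 before to 50 after a start site. No window of RUNX1T1 or CBFB was among them, so the motif was not searched for at these genes. The core motif TGTGGT, or ACCACA on the other strand, was present in 13.1% of all 35116 RefSeq promoter windows. It was found 4 times in the distal RUNX2 window and 2 times in the distal RUNX3 window, and in none of the other 5 windows. Only 0.125% of all windows held 3 or more copies. The only RUNX1 window (chr21:34888650-34888949, minus strand) lay inside the gene, whose upstream end is at 35049302. The motif was therefore not searched for at the upstream end of RUNX1. The bases upstream of the distal start sites read as follows, on the strand of the gene (RUNX2 at chr6:45328080-45328329, plus strand; RUNX3 at chr1:24965011-24965260, minus strand), with the motif in capitals.
RUNX2 distal: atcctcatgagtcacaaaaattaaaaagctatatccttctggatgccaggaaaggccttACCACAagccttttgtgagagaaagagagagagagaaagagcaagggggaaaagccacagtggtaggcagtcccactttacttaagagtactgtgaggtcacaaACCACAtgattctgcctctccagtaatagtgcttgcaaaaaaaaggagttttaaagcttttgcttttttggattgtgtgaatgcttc
RUNX3 distal: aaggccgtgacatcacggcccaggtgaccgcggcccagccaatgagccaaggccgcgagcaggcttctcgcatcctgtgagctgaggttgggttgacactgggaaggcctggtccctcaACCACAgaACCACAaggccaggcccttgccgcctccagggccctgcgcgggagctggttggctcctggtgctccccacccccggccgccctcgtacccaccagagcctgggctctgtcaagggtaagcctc

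Both distal windows also shared an unbroken run of 18 bases that held the motif 2 times. This run was picked as the longest one shared between windows of different RUNX genes, so these windows were bound to hold it. Of all 35116 windows, 2 held this run (0.0057%), and these were the ones of RUNX2 and RUNX3. That share does not measure how unusual such sharing is. No RUNX1 window covered the upstream end of that gene, so whether RUNX1 has the run there was not examined. In RUNX3 it lay before the start site (chr1:24965120-24965149, minus strand), in RUNX2 just behind it (chr6:45328338-45328367, plus strand). The 30 bases around it are given with the shared run in capitals.
RUNX3: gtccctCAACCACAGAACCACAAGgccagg
RUNX2: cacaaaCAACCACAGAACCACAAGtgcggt
A match of this kind describes the sequence and does not show that a factor was bound. The counts were deposited per gene, so that distal and proximal promoters could not be told apart in any value below.

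Depth set the limit for all members. Libraries held from 442159 to 1323431 counts on day 3 and from 1058754 to 3539937 on day 28. Mitochondrial genes took 32.7% to 45.6% and 63.6% to 68.5% of these counts, which left from 297567 to 791448 and from 376209 to 1116385 counts on other genes. Levels are given as CPM, read counts scaled to library size by the TMM method, in which 1 read was worth from 0.470 to 1.45 CPM depending on the library. Members were tested with edgeR's quasi-likelihood test over 17660 genes, and a gene was called when its p-value, adjusted over all of them by the Benjamini-Hochberg method, was under 0.05. All 7 members passed the filter on low counts. KMT2A, the source of the MLL part of the constructs, came on day 3 to 35.7 ± 6.9 CPM in MLL-AF4, 52.8 ± 5.1 in co-expression and 96.5 ± 12.6 in AF4-MLL cells (SD, n = 3). On day 28 KMT2A came to 45.4 ± 1.7, 67.4 ± 10.9 and 94.0 ± 9.5 CPM in the same order, so its reads had not fallen back in co-expression or AF4-MLL cells. The group means of AFF1 ran from 50.5 to 62.9 CPM. Marker genes of kidney and of HEK293T cells did not stand apart from blood markers as a list. NEFM and LHX1 had 51.9 and 22.8 counts per 10 kb, against a median of 6.69 over 34285 genes. EYA1 had 0.962, and the blood markers SPI1 and PTPRC had 10.98 and 1.48. Such values depend on gene length. The median CPM per 10 kb of tested genes was 38.3 for spans under 10 kb and 0.943 for spans over 100 kb. Accessibility and length are therefore not separated in these marker values.

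RUNX1T1 was the member that differed. All 6 co-expression libraries had fewer reads on RUNX1T1 than all 12 libraries with a single fusion gene, 5.97 to 16.0 CPM against 21.96 to 42.4. RUNX1T1 (ENSG00000079102) lies on chromosome 8 from 91954967 to 92103385 (GRCh38.p14) and overlaps no other RefSeq gene. Of the 17660 genes tested, 53 lay below all single-fusion libraries in this way (0.3%), and RUNX1T1 was the only member among them. This is a description, because the difference between co-expression and AF4-MLL cells on day 28 was known when the genes were chosen. Among the libraries of day 3 alone, RUNX1T1 and CBFA2T2 lay below all single-fusion libraries, as did 3.02% of all genes.

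On day 3, co-expression cells had 14.0, 5.97 and 9.56 CPM on RUNX1T1 in replicates 1, 2 and 3. MLL-AF4 cells had 42.4, 27.9 and 21.96 CPM, and AF4-MLL cells 26.3, 24.6 and 24.7. The group means were 9.84 ± 4.02 CPM (SD, n = 3) in co-expression cells, 30.8 ± 10.5 in MLL-AF4 cells and 25.2 ± 0.97 in AF4-MLL cells. Behind these values stood 8 to 21 reads per co-expression library and 17 to 48 reads per single-fusion library. RUNX1T1 was 3.08-fold lower in co-expression than in MLL-AF4 cells (log2 −1.62, SE 0.27, edgeR adjusted p 3.1e-05). It was 2.53-fold lower than in AF4-MLL cells (log2 −1.34, SE 0.26, adjusted p 0.00051).

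On day 28, co-expression cells had 10.8, 7.47 and 16.0 CPM, MLL-AF4 cells 31.3, 28.5 and 23.3, and AF4-MLL cells 36.5, 30.4 and 29.3. The groups did not overlap, although the lone highest co-expression value rested on 12 reads. The means were 11.4 ± 4.27 CPM (SD, n = 3), 27.7 ± 4.08 and 32.0 ± 3.86. Against MLL-AF4 cells RUNX1T1 was 2.64-fold lower (log2 −1.40, SE 0.25, adjusted p 9.0e-05). Against AF4-MLL cells the log2 difference was −1.60 (SE 0.24), which is given as a description without a test, because the values of RUNX1T1 and RUNX1 in this contrast were known when the genes were chosen. The day 28 comparison with MLL-AF4 cells uses the same co-expression libraries, so it is not independent of the choice. The day 3 comparisons share no library with the contrast used for the choice. The 3 tested differences were called under 14 of 14 alternative settings each, and leaving out single libraries gave log2 values from −1.96 to −1.30, from −1.68 to −1.09 and from −1.56 to −1.18 in the order given.

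**Figure D1:**
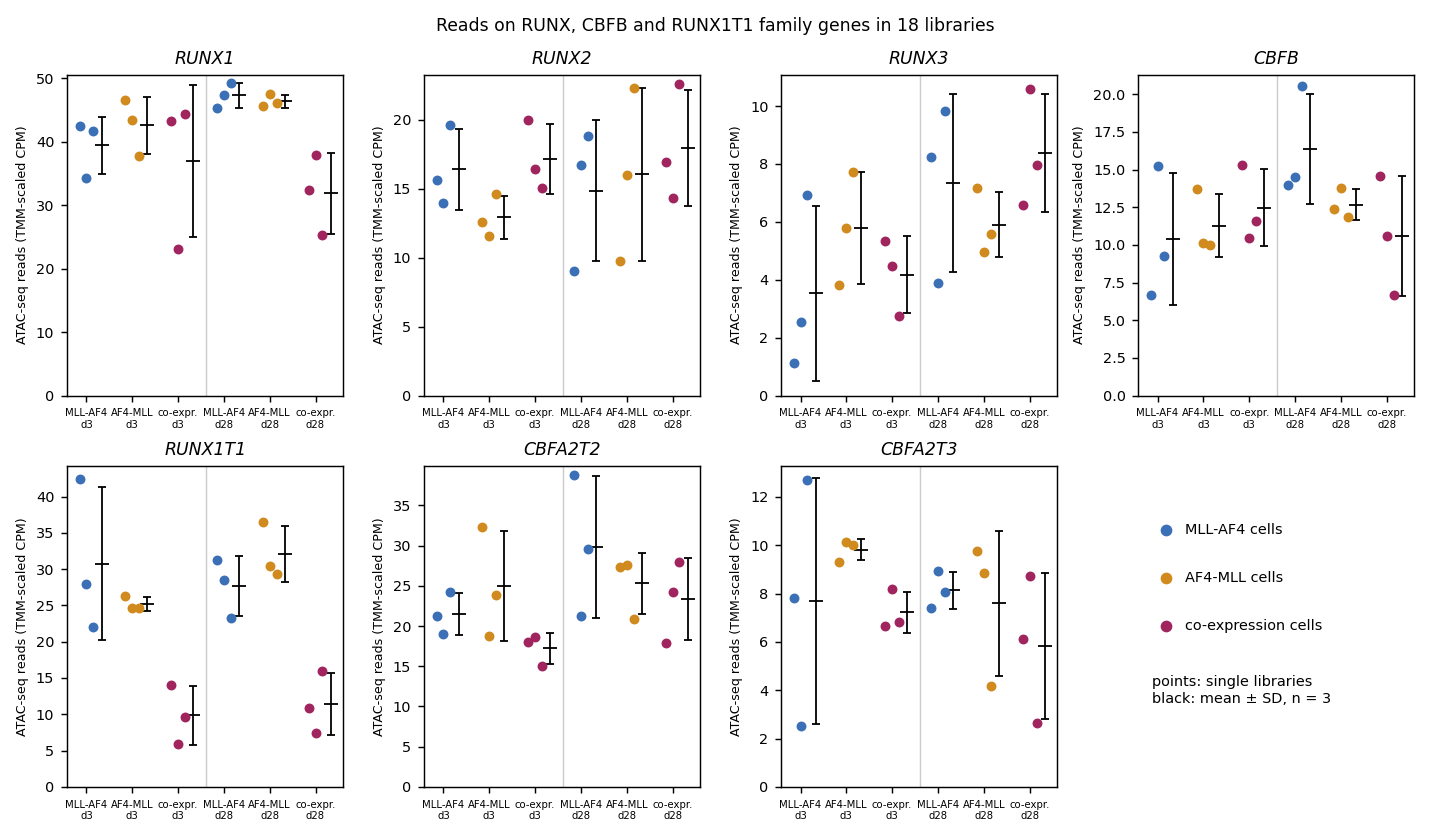
Normalized ATAC-seq reads on each member (CPM, linear axis from 0) in MLL-AF4, AF4-MLL and co-expression cells on day 3 (d3) and day 28 (d28). Points are libraries, black bars the mean ± SD (n = 3); for RUNX1T1 the 6 co-expression libraries lie at 5.97 to 16.0 CPM and the other 12 at 21.96 to 42.4.

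Between the cells with a single fusion gene, RUNX1T1 was not called on either day. On day 3 AF4-MLL cells differed from MLL-AF4 cells by log2 −0.28 (SE 0.23, edgeR adjusted p 0.75). The day 28 difference was 0.20 (SE 0.19), with an adjusted p of 0.85. Nor was a change called from day 3 to day 28 in any setting. The log2 change was 0.07 in co-expression cells (95% interval −0.54 to 0.69), −0.15 in MLL-AF4 cells (−0.59 to 0.29) and 0.33 in AF4-MLL cells (−0.06 to 0.73), with adjusted p of 0.97, 0.81 and 0.64. Changes within these bounds were not detectable at this depth. All 3 AF4-MLL libraries of day 28 lay above the 3 of day 3, while the other settings overlapped.

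Read against all genes, calls were rare in each comparison. In co-expression against MLL-AF4 cells on day 3, 1 of 7 members was called, where 1.81% of all genes were (0.906% lower). In co-expression against AF4-MLL cells on day 3 it was 1 of 7 beside 1.28% (0.798% lower), and against MLL-AF4 cells on day 28 1 of 7 beside 1.17% (0.753% lower). In the contrast used for the choice of genes, co-expression against AF4-MLL cells on day 28, 1.69% of all genes were called, and no call is given for the members. No member was called in AF4-MLL against MLL-AF4 cells on day 3 (0.142% of all genes) or day 28 (0.0793%). The same held from day 3 to day 28 in AF4-MLL cells (0.606% of all genes), MLL-AF4 cells (2.87%) and co-expression cells (0.606%). The median log2 difference of the 7 members was −0.08, −0.40 and −0.39 in the 3 tested comparisons with co-expression cells in the order given, beside −0.0023, 0.0057 and 0.0091 over all genes. Over the 8 contrasts not used for the choice there were 56 tests of members. Of these, 3 were called, all of RUNX1T1, and 6 had an unadjusted p under 0.05. Contrasts with co-expression or AF4-MLL libraries of day 28 share those libraries with the contrast used for the choice. The day 28 call is among them, so it is not independent of the choice.

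The change over time was also compared between the settings. Of 21 such interaction tests of members with edgeR 0 were called and 0 had an unadjusted p under 0.05 (smallest p 0.096, adjusted p 0.60). Over all genes 0.232% were called for co-expression against MLL-AF4 cells, 0% for co-expression against AF4-MLL cells and 0.317% for AF4-MLL against MLL-AF4 cells. DESeq2 called 0 of these 21 as well.

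**Figure D2:**
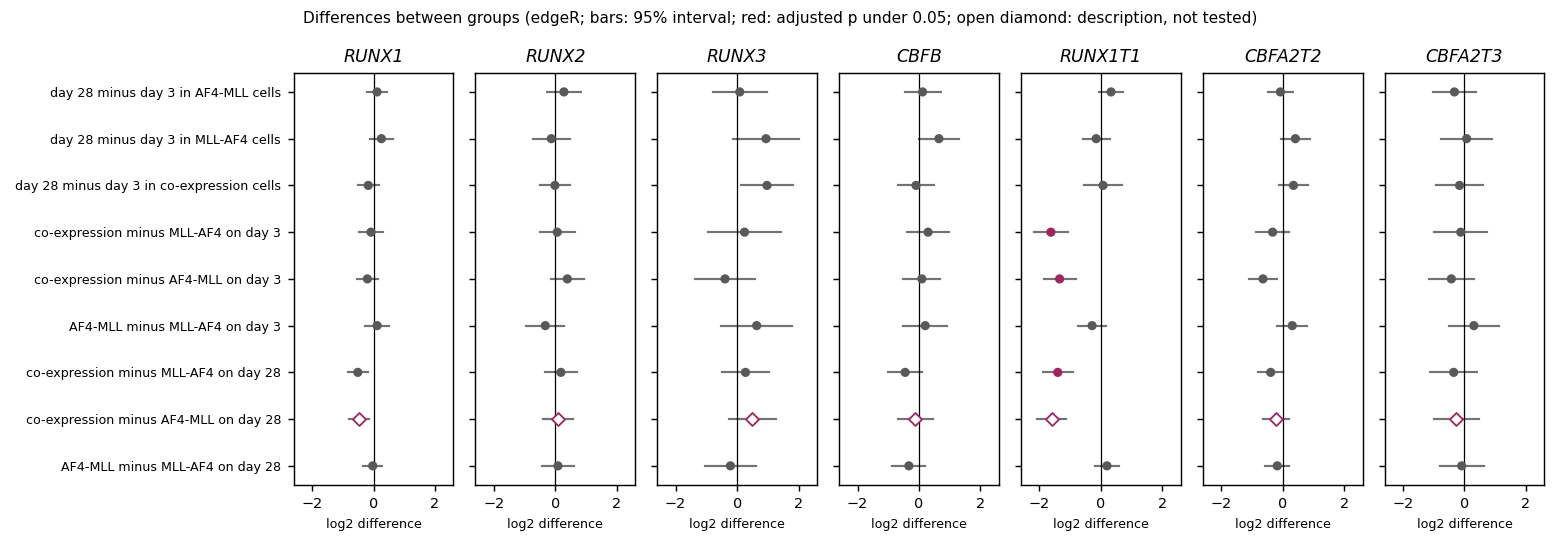
Log2 differences of the 7 members (columns) in 9 contrasts (rows) with 95% intervals from the edgeR fit. Filled red points passed an adjusted p of 0.05, grey points did not, and open diamonds are given without a test; the 3 red points are RUNX1T1 in co-expression against MLL-AF4 cells on both days and against AF4-MLL cells on day 3.

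RUNX1T1 did not move with the tested genes around it. Its nearest tested neighbours were OTUD6B, 0.885 Mb before it, and TRIQK, 0.929 Mb behind it, counted between gene starts. OTUD6B had 23.7 ± 3.5 CPM (SD, n = 3) in co-expression cells on day 3, beside 25.4 ± 4.7 in MLL-AF4 and 19.9 ± 5.5 in AF4-MLL cells. TRIQK had 18.8 ± 3.6, 23.5 ± 2.8 and 17.5 ± 5.0 CPM. Neither was called in a comparison with co-expression cells, with log2 differences from −0.33 to 0.21.

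The same was seen over a wider stretch. The 10 tested genes on each side, from RIPK2 to DPY19L4 over 5.04 Mb, had median log2 differences of −0.10 and 0.11 on day 3, against MLL-AF4 and AF4-MLL cells, and of 0.06 and −0.02 on day 28. Of these 20 genes, 0 were called in any of the 4 comparisons and 0 had a lower log2 value than RUNX1T1. Among all 513 other tested genes of chromosome 8, those with a lower value than RUNX1T1 were 3 and 2 on day 3 and 1 and 1 on day 28. The last of the 4 comparisons, against AF4-MLL cells on day 28, was the contrast used for the choice of genes.

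**Figure D3:**
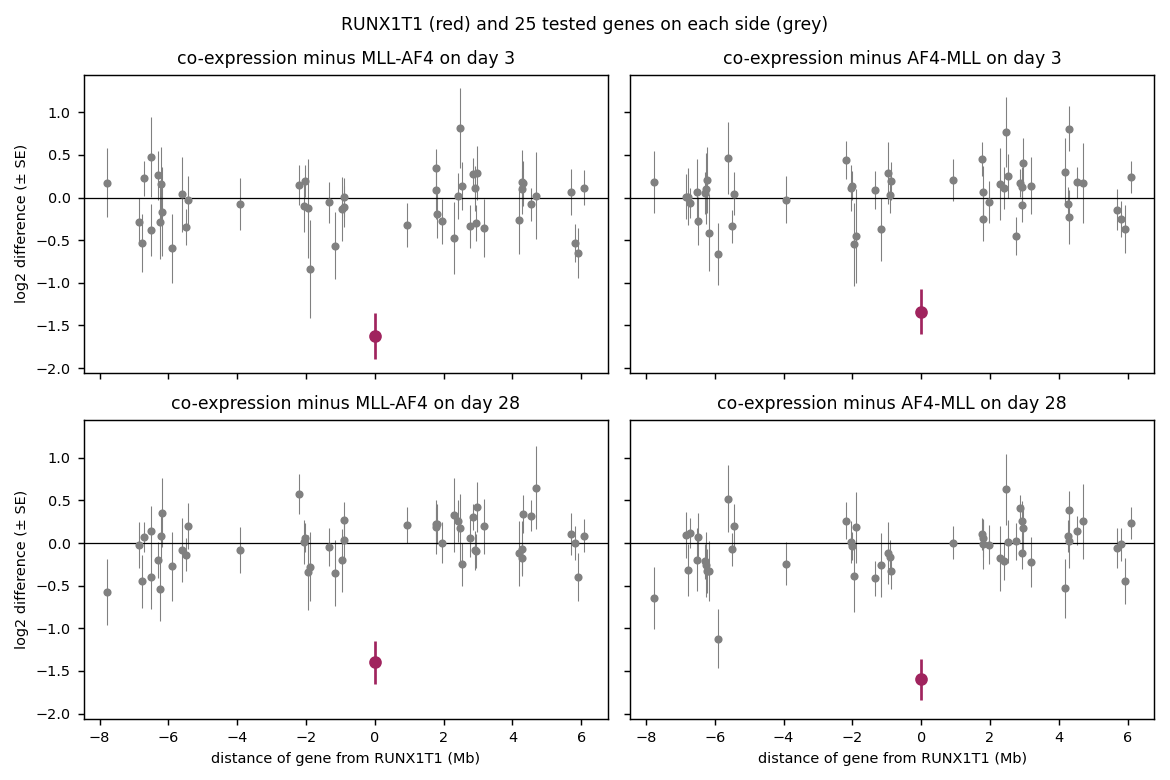
Log2 difference (± SE) of RUNX1T1 (red) and of 25 tested genes on each side (grey) against their distance from RUNX1T1 in Mb, for co-expression cells against each single-fusion setting on each day. RUNX1T1 lies at −1.62, −1.34, −1.40 and −1.60 and below every gene drawn.

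RUNX1T1 also made up less of the reads on its own family in co-expression cells. RUNX1T1 held 28.3% ± 9.2 (SD, n = 3) of the reads on the 3 MTG genes in co-expression cells on day 3, beside 51.01% ± 12.01 in MLL-AF4 and 42.3% ± 3.6 in AF4-MLL cells. On day 28 it held 27.9% ± 8.4, 42.4% ± 5.4 and 49.6% ± 4.2. Over both days its share was 18.2% to 36.2% in the 6 co-expression libraries and 37.3% to 59.4% in the other 12, so the ranges came within about a percentage point of each other. These libraries include those of the contrast used for the choice of genes. CBFA2T2 held the largest share of the trio in each co-expression library. The family as a whole had between 35 and 124 reads per library, and a share does not depend on how libraries were scaled. It was not tested.

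**Figure D4:**
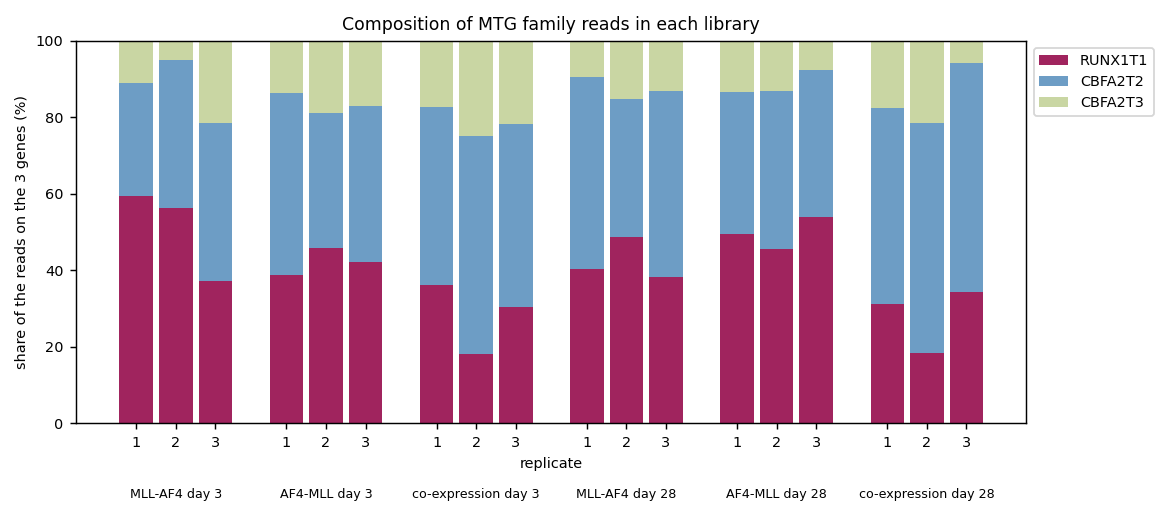
Share of RUNX1T1, CBFA2T2 and CBFA2T3 in the reads on these 3 genes (%), 1 bar for each of 18 libraries, grouped by setting and day. The RUNX1T1 share was at most 36.2% in co-expression libraries and at least 37.3% in all others.

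CBFA2T2 (ENSG00000078699, chromosome 20) was not called in any tested contrast. The co-expression libraries had 18, 18.6 and 15.03 CPM, AF4-MLL libraries 32.3, 18.8 and 23.9, and MLL-AF4 libraries 21.2, 19.0 and 24.3. The 3 co-expression libraries thus lay below the 6 others, as did those of 3.02% of all genes on that day, but the nearest values were 18.6 and 18.8. The log2 difference was −0.64 against AF4-MLL cells (SE 0.23, p 0.0059, edgeR adjusted p 0.16) and −0.33 against MLL-AF4 cells (SE 0.27, adjusted p 0.62). On day 28 the groups overlapped, with 23.4 ± 5.1 CPM (SD, n = 3) in co-expression, 29.8 ± 8.8 in MLL-AF4 and 25.3 ± 3.8 in AF4-MLL cells.

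CBFA2T3 (ENSG00000129993, chromosome 16) was thinly covered, with 2 to 17 reads per library and 5 RefSeq genes that overlap it. Its group means ran from 5.83 ± 3.04 CPM (SD, n = 3) in co-expression cells on day 28 to 9.82 ± 0.44 in AF4-MLL cells on day 3. In the 8 tested contrasts its log2 differences ran from −0.43 to 0.31, and the 95% intervals reached from −1.16 to 1.13. A difference of the size seen for RUNX1T1 against AF4-MLL cells on day 3 lay beyond these bounds, and smaller ones were not detectable at this depth.

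RUNX1 (ENSG00000159216), the best covered member with 19 to 86 reads per library, lies on chromosome 21 from 34787801 to 35049302. On day 28 the co-expression libraries had 32.4, 38.0 and 25.3 CPM. The MLL-AF4 libraries had 45.3, 47.4 and 49.2 CPM and the AF4-MLL libraries 45.6, 47.5 and 46.0. All 3 co-expression libraries lay below the 6 others, which were close together. The co-expression and AF4-MLL libraries among these belong to the contrast used for the choice of genes. The share of all genes with this pattern on day 28 was not counted, so nothing is read from it. Between co-expression and MLL-AF4 cells alone, the libraries of 16% of all genes did not overlap on that day. The log2 difference from MLL-AF4 cells was −0.51 (SE 0.17, p 0.0026), and it was not called (edgeR adjusted p 0.11). It stayed uncalled under 14 of 14 alternatives, with log2 from −0.63 to −0.43. The co-expression libraries are shared with the contrast used for the choice, so this test was not independent of it. From AF4-MLL cells the difference was −0.49 (SE 0.16), again without a test.

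On day 3 RUNX1 overlapped between the settings. Co-expression libraries had 43.3, 23.1 and 44.4 CPM, MLL-AF4 libraries 42.4, 34.3 and 41.6, and AF4-MLL libraries 46.6, 43.4 and 37.8. The log2 differences were −0.08 (SE 0.19, adjusted p 0.90) and −0.20 (SE 0.17, adjusted p 0.71). Both rested on replicate 2 of the co-expression cells, without which they were 0.15 and 0.04. The difference between days, co-expression minus MLL-AF4 cells, was −0.43 (SE 0.26, adjusted p 0.60), so the day 28 difference was not shown to differ from that of day 3. None of the 20 tested genes around RUNX1, from SON to PIGP, had a lower log2 value than RUNX1 on day 28, and their medians were 0.06 and 0.01. Among all 158 other tested genes of chromosome 21, 25 had a lower value against MLL-AF4 cells. Against AF4-MLL cells, the contrast used for the choice of genes, 16 did.

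RUNX2 (ENSG00000124813, chromosome 6, overlapping SUPT3H) had 8 to 36 reads per library and group means from 12.9 ± 1.6 CPM (AF4-MLL cells, day 3) to 17.9 ± 4.2 (co-expression cells, day 28; SD, n = 3). The 3 co-expression libraries of day 3 (19.997, 16.4 and 15.03 CPM) lay above the AF4-MLL ones (12.6, 11.6 and 14.6). This difference was log2 0.39 (SE 0.28, edgeR adjusted p 0.61) and was not called. Among the 8 tested contrasts the log2 values ran from −0.33 to 0.39.

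RUNX3 (ENSG00000020633, chromosome 1) had the fewest reads, from 1 to 17 per library. In co-expression cells it had 5.33, 4.47 and 2.73 CPM on day 3 and 6.58, 10.6 and 7.98 on day 28. The days did not overlap. The log2 change was 0.97 (SE 0.43, p 0.025), and it was not called (edgeR adjusted p 0.43). When libraries were scaled by their size alone it was −0.08, and the median of all genes was −1.07. In MLL-AF4 cells the log2 change was 0.94 (SE 0.55, adjusted p 0.41), with 1, 2 and 6 reads on day 3, and in AF4-MLL cells 0.08 (SE 0.44, adjusted p 0.98).

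CBFB (ENSG00000067955, chromosome 16), the partner of all RUNX proteins, had 5 to 31 reads per library. Its group means ran from 10.4 ± 4.4 CPM (SD, n = 3) in MLL-AF4 cells on day 3 to 16.4 ± 3.7 in the same cells on day 28. This change was log2 0.65 (SE 0.34, p 0.055, edgeR adjusted p 0.33). On day 28 the MLL-AF4 libraries (14.0, 14.5 and 20.6 CPM) lay above the AF4-MLL libraries (12.4, 13.8 and 11.9), with a log2 difference of −0.33 for AF4-MLL minus MLL-AF4 (SE 0.27, adjusted p 0.81). Co-expression libraries had 14.6, 10.6 and 6.65 CPM on that day and overlapped both.

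Groups of members whose libraries did not overlap were read beside the same share over all genes. In co-expression against MLL-AF4 cells on day 3 these were 2 of 7 members, RUNX1T1 and CBFA2T2, beside 19% of all genes. Against AF4-MLL cells on day 3 they were 4 of 7 (RUNX1T1, CBFA2T2 and CBFA2T3 lower, RUNX2 higher), beside 16.5%. On day 28 they were RUNX1T1 and RUNX1 against both single-fusion settings, beside 16% and 16.8%, the latter in the contrast used for the choice, from which nothing is read. CBFB was the only one in AF4-MLL against MLL-AF4 cells on day 28 (13.4% of all genes), and none was found on day 3 (14%). Between the days there was 1 each in AF4-MLL cells (RUNX1T1, 14%), MLL-AF4 cells (RUNX1, 20.4%) and co-expression cells (RUNX3, 14.2%).

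Levels were compared between the genes per length of the gene, within each kind of setting. In the 12 single-fusion libraries RUNX1T1 came first with 1.95 ± 0.39 CPM per 10 kb of gene span (SD, n = 12), before CBFB with 1.76 ± 0.49, RUNX1 with 1.68 ± 0.17 and CBFA2T2 with 1.59 ± 0.37. RUNX3 with 0.859 ± 0.383, CBFA2T3 with 0.812 ± 0.265 and RUNX2 with 0.676 ± 0.179 came behind, and CBFA2T2 and RUNX3 were the only neighbours in this order whose means lay more than the larger of their SDs apart. In the 6 co-expression libraries the order was CBFB (1.60 ± 0.44 CPM per 10 kb; SD, n = 6), RUNX1 (1.32 ± 0.35), CBFA2T2 (1.27 ± 0.30), RUNX3 (0.957 ± 0.421), RUNX2 (0.788 ± 0.142), RUNX1T1 (0.716 ± 0.257) and CBFA2T3 (0.638 ± 0.209), with all neighbours within the larger of their SDs. Where the members stood among all genes depended on the scale. By reads per length all 7 lay between the 7.60th and the 20.5th percentile, whereas by reads per gene they ran from the 5.49th (RUNX3) to the 90.0th percentile (RUNX1), with RUNX1T1 at the 66.4th. The median count of protein-coding genes was 7.67 for spans under 10 kb and 17.4, 21.9 and 22.4 for spans of 10 to 30, 30 to 100 and over 100 kb, so reads did not grow in proportion to span. The part of a gene that was counted is not stated, and the orders are given as a description.

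Partners and targets of these proteins were counted from 4 lists, which held 19 tested corepressor partners of MTG proteins, 20 RUNX co-regulators, 9 regulators of RUNX stability and 10 RUNX target genes. Of 67 genes listed 58 were tested, and 6 were called in 1 contrast each. The list medians in the comparisons with co-expression cells on day 3 lay between −0.21 and 0.29 on the log2 scale, beside medians over all genes of −0.0023 and 0.0057.

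In co-expression against MLL-AF4 cells on day 3, 2 of the 58 were called, beside 1.81% of all genes. SIN3A, a scaffold of histone deacetylase complexes, was higher, at 62.4 ± 4.1 against 41.8 ± 4.4 CPM (SD, n = 3; log2 0.57, SE 0.17, edgeR adjusted p 0.049). LYL1, a blood transcription factor found in complexes with MTG proteins, was lower, at 2.62 ± 1.91 against 8.92 ± 2.42 CPM (log2 −1.78, adjusted p 0.049), which rested on 1, 6 and 4 against 10, 5 and 8 reads. Each of the 6 omissions of a single library ended the SIN3A call (log2 0.50 to 0.63). The LYL1 call was lost without replicate 1 or 3 of co-expression cells (log2 −1.31 and −1.82) or replicate 1, 2 or 3 of MLL-AF4 cells (−1.58, −1.96 and −1.76).

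In co-expression against AF4-MLL cells on day 28, 1 of the 58 was called, beside 1.69% of all genes. This is the contrast used for the choice of genes, so the call is given as a description and not as a test. TCF12, an E protein that binds the MTG family, was higher in co-expression cells (24.2 ± 2.6 against 14.3 ± 4.0 CPM, SD, n = 3; log2 0.82, SE 0.24, edgeR adjusted p 0.040). This call was lost without replicate 1 or 2 of AF4-MLL cells (log2 0.78 and 0.65) or of co-expression cells (0.76 and 0.82).

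From day 3 to day 28 in MLL-AF4 cells, 3 of the 58 were called, beside 2.87% of all genes. EP300, a histone acetyltransferase that RUNX1 recruits, rose from 23.3 ± 12.9 to 43.2 ± 2.6 CPM (log2 0.91, SE 0.22, edgeR adjusted p 0.0046), and this was lost without replicate 1 of day 3 (log2 0.56, adjusted p 0.27). FZR1, an activator of the anaphase-promoting complex, rose from 15.01 ± 2.4 to 27.0 ± 3.3 CPM (log2 0.87, adjusted p 0.045). It stayed called only without replicate 3 of day 28, while the other 5 omissions ended the call (log2 0.79 to 1.00). TLE4, a Groucho corepressor bound by RUNX proteins, fell from 259 ± 6.7 to 196 ± 11.2 CPM (log2 −0.40, adjusted p 0.031), and each of the 6 omissions ended that call (log2 −0.44 to −0.35). Scaled by library size alone, where the median of all genes was −0.87 in this contrast, the values of EP300 and FZR1 were 0.03 and −0.01 and that of TLE4 −1.28.

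The genes whose levels over the 18 libraries were most like RUNX1T1 were COX20 (Pearson r 0.91 of log2 CPM), HNRNPU (0.90) and AC010890.1 (0.90), among 17659 genes compared. HNRNPU had 84.7 to 93.2 CPM in co-expression and 111 to 135 CPM in single-fusion libraries, and COX20 42.5 to 65.1 and 72.5 to 89.2. Both lie on chromosome 1, side by side, and neither overlapped between co-expression and single-fusion libraries. For RUNX1 the closest were AL162274.3 (0.86), AL590617.2 (0.86) and PSKH1 (0.84). These correlations describe libraries that share their groups. Among the members themselves r was highest for RUNX1 with RUNX1T1 (0.59) and lowest for RUNX2 with CBFA2T3 (−0.35).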

How the data were processed

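ATAC-seq reads were counted per gene in 18 libraries. The authors deposited raw counts, whole numbers for 54425 genes, in a single table. The submitters' processing notes name bcl2fastq, Bowtie2, HTSeq and GRCh38, with no version of the tools. Duplicate removal, any offset of reads for the transposase and the counted part of a gene are not given in the sources used here, and strand carries no information in this assay, so overlapping genes can share reads. Replicate pairs differed by more than sampling noise (chi-square per degree of freedom 1.08 to 3.02 over 18 pairs).

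The test was edgeR 4.0.16 (R 4.3.3) with TMM scaling, filterByExpr (minimum count 10, minimum total 15), 6 groups and no other covariate. This fit gave 9 pairwise contrasts and 3 interactions, with p-values adjusted over 17660 genes. The script was tested on simulated data. Positions and sequences came from RefSeq (GRCh38.p14), whose symbols matched 84.5% of the tested genes. Members and lists were chosen with earlier results of these data known. Named were all 7 members, list genes called in any contrast, the 3 genes most like RUNX1T1 and RUNX1, the nearest tested neighbours of RUNX1T1, and KMT2A and AFF1. Alternatives were DESeq2 1.42.0 and its size factors, library size only, other filters, mitochondrial genes left out, only the groups compared, a replicate block and leaving out each library. Columns of other samples were not present. Intervals cover the spread between these libraries only. Some marker genes are not reported here.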

Additional observations from a re-analysis of the deposited data

How the results depend on the processing

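The differences of RUNX1T1 kept their direction and their call under all 14 alternatives run for each, with DESeq2 adjusted p of 0.0013, 0.030 and 0.024 in the order of the report. RUNX1 on day 3 against MLL-AF4 cells, uncalled, turned to 0.048 with library size only, 0.044 with no filter and 0.15 without replicate 2 of the co-expression cells, and against AF4-MLL cells to 0.036 without that library, with −0.34 as the other end of the range over single libraries left out. Without single libraries the first ran from −0.22 to 0.15. Library size as the only scaling turned RUNX3 over time in co-expression cells to −0.077 and FZR1 to −0.012. From day 3 to day 28 it called 7 members in AF4-MLL, 6 in co-expression and 3 in MLL-AF4 cells. List genes called were 54, 51 and 33 in the same order. With that scaling the median of all genes also fell between the days in co-expression and MLL-AF4 cells, as given above. The share of all genes called with it is not given, so nothing is read from these counts.

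List counts were small and unstable. In co-expression against MLL-AF4 cells on day 3 the 2 calls became 1 with DESeq2 size factors, library size only or no filter, and 0 with mitochondrial genes left out, DESeq2's test, the stricter filter or only the groups compared. Against AF4-MLL cells on day 28 the 1 call became 0 with library size only, DESeq2's test or no filter. From day 3 to day 28 it became 1 in AF4-MLL cells (only the groups compared) and 1 in MLL-AF4 cells (no filter). Leaving out single libraries gave 0 to 1 in each of co-expression against AF4-MLL cells on day 28 and on day 3, co-expression against MLL-AF4 cells on day 3, the change over time of co-expression minus MLL-AF4 cells and the days in co-expression cells, and 0 to 2 for the days in MLL-AF4 cells. The cause was not tested.

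The median around RUNX1T1 moved to 0.17 on day 28 (only the groups compared, against MLL-AF4 cells) and on day 3 to 0.023 with library size only and 0.024 with no filter, and from −0.22 to −0.047 without single libraries. With 25 genes on each side the median was 0.070 around CBFA2T2 (co-expression against AF4-MLL cells, day 28) and 0.066 around CBFB (against MLL-AF4 cells, day 3). The exon length of genes was not run, as exons were not used here.

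Same-numbered replicates did not deviate together (27 correlations from −0.042 to 0.025, and in 8 of 27 comparisons a library correlated best with its own number). With a replicate block the list calls fell to 0 in co-expression against MLL-AF4 cells on day 3 and to 0 against AF4-MLL cells on day 28, and no member's call changed. RUNX3, CBFA2T3 and LYL1 had under 18 reads in every library, which limits what could be detected for them.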

Other observations

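The 53 genes that, like RUNX1T1, had fewer reads in all 6 co-expression libraries than in all 12 single-fusion libraries were unevenly placed. On chromosome 17 there were 15, on chromosome 1 12 and on chromosome 22 5, while chromosome 8 held RUNX1T1 and ASNSP1, 45.4 Mb apart. Of those on chromosome 1, 11 started beyond 200 Mb, of those on chromosome 17, 14 started before 22 Mb, and all 5 on chromosome 22 lay within 0.682 Mb of each other. They include COX20 and HNRNPU, the genes most like RUNX1T1.

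These stretches, chosen after their values were seen, were lower as wholes. The 302 tested genes of chromosome 1 beyond 200 Mb had median log2 differences of −0.33 and −0.30 on day 3 (co-expression minus MLL-AF4 and minus AF4-MLL) and of −0.26 and −0.38 on day 28. For the 255 tested genes of chromosome 17 before 22 Mb the medians were −0.37, −0.51, −0.52 and −0.47. For 30 genes of chromosome 22 between 49 and 51 Mb they were −0.45, −0.74, −0.73 and −0.66. In none of them was a gene called higher, with 27, 24, 16 and 33 called lower on chromosome 1. COX20 and HNRNPU lay within such a stretch, and around RUNX1T1 the medians of 20 genes were between −0.10 and 0.11. The nearest tested genes lay 0.885 and 0.929 Mb from RUNX1T1, so a change confined to a shorter stretch around it could not be seen. The number of DNA copies of these stretches and of RUNX1T1 was not measured, and its part in these values was not tested.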
